A study of Daphnia magna with 36 samples.

Results

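At the LC25, 150 of the 7680 probes on a Daphnia magna array had median log ratios of opposite sign under zinc oxide nanoparticles (ZnO NP) and under zinc sulphate (ZnSO4). They were chosen by their measured values in these 2 groups: each probe's median over exposures had to reach 0.2 on the log2 scale in both groups, with opposite signs. Values in at least 3 exposures of both groups were required, which 5726 probes had. Of these, 932 reached 0.2 in both groups, 457 with the same sign and 475 with opposite signs, and the 150 with the largest difference between the medians were kept. The members fall into 60 probes that were positive under ZnO NP and negative under ZnSO4 (ZnO-positive members) and 90 with the reverse pattern (ZnO-negative members).

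Daphnia magna is a freshwater crustacean that filters particles from the water and is widely used in toxicity testing. Zinc is an essential metal that is toxic in excess; ZnSO4 supplies it as dissolved ions, whereas ZnO NP present it as particles that release ions as they dissolve. Silica nanoparticles (SiO2 NP) are particles of a material without zinc. The series asked whether ZnO NP act on gene expression as dissolved zinc does. The members are the probes whose median ratios under particle and salt had opposite signs at the LC25, a difference that was not tested.

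RNA of whole adult females, 10 days old, was taken after 24 h of exposure at 25 °C, with 16 animals pooled per RNA, and each of 36 2-colour arrays set exposed against unexposed laboratory animals. The groups at the LC25, the concentration at which 25% of animals die, received 9.0 mg/L ZnO NP, 0.91 mg/L ZnSO4 or 5.1 mg/L SiO2 NP. The groups at 1/10 of the LC50 received 2.2, 0.13 and 1.4 mg/L, so the levels were matched by lethality and the concentrations differ. Each group held 6 arrays, from 4 exposures for ZnO NP at either level. ZnSO4 had 5 exposures at the LC25 and 3 at the lower level, SiO2 NP 4 and 3. Whether groups shared unexposed RNA is not given in the sources used here. A ratio compares exposed with unexposed RNA, but which is the numerator is not given either, and ratios are therefore called positive or negative and not higher or lower expression. Probes carry plate positions as names, none of which matched the gene table for this species, so no gene, pathway or sequence is given.

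Averaging the arrays of an exposure left 23 exposures: 13 rest on a dye-swapped pair and 10 on a single array. Between 46.7% and 90.5% of probes had a value per array, and the 4 arrays below 60% were all in the zinc groups at the LC25. ZnO NP exposure 4 was one of them: it had a value for 50 of the 60 ZnO-positive members but for only 23 of the 90 ZnO-negative members. A value in all 9 zinc exposures at the LC25 was present for 43 ZnO-positive and 18 ZnO-negative members. In ZnSO4 exposure 3 at the LC25 the members went against their own group: 55 of 58 ZnO-positive members with a value were positive there and 72 of 90 ZnO-negative members negative, the signs that ZnO NP gave. Without it, 710 probes had opposite signs in place of 475, and 127 of the 150 members still met the rule. Without ZnO NP exposure 1, 2 or 3 only 66, 55 and 47 members met it, and 3534, 3359 and 3390 probes had enough exposures to be eligible.

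The median log2 ratio of the ZnO-positive members was 0.45 under ZnO NP and -0.37 under ZnSO4 at the LC25. That of the ZnO-negative members was -0.47 and 0.46. Over all 5726 eligible probes the medians of both groups lay near 0, at -0.016 and -0.046. These levels were used to choose the members and are a description only. Under ZnO NP the members' probe medians ran from 0.20 to 0.69 and from -1.21 to -0.22. Under ZnSO4 they ran from -0.73 to -0.20 and from 0.20 to 1.66. The longest reach was thus on the ZnSO4 side of the ZnO-negative members.

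Where the rule drew its line, neighbouring probes hardly differed. P9BA7, the last probe inside, had 0.45 under ZnO NP and -0.27 under ZnSO4, a difference of 0.716. A6H7, the first outside, had -0.45 and 0.27, a difference of 0.715. P10DB3 was a member with only 0.20 under ZnO NP beside -0.55 under ZnSO4, while P12AC11 was left out at -0.199 beside 0.79. In all, 71 probes outside the members had opposite signs and a difference as large as theirs, but a median nearer to 0 than 0.2 in one group.

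The opposition was not uniform over the exposures. The median of the ZnO-positive members was 0.26, 0.48, 0.68 and 0.19 in ZnO NP exposures 1 to 4. It was -0.52, -0.40, 0.39, -0.25 and -0.48 in ZnSO4 exposures 1 to 5. ZnO NP exposures were thus all positive, averaging 0.40 ± 0.22 (SD, n = 4), and ZnSO4 exposures negative except the third, averaging -0.25 ± 0.37 (SD, n = 5). The ZnO-negative members had medians of -0.49, -0.17, -0.74 and -0.28 in the ZnO NP exposures. In the ZnSO4 exposures they had 0.45, 0.49, -0.25, 0.48 and 0.79. Again the third ZnSO4 exposure lay among the ZnO NP values.

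Probe by probe, only a few members separated the groups fully. Every ZnO NP value lay above every ZnSO4 value for 5 of the 60 ZnO-positive members, against 2.17% of all eligible probes. Every ZnO NP value lay below every ZnSO4 value for 10 of the 90 ZnO-negative members, against 1.92%. Without ZnSO4 exposure 3 these counts were 40 and 45, but the matching shares of all eligible probes were not computed. The rule used the same values, so nothing is read from the counts. The members' spread, which the rule also touches, lay above that of all probes. The median SD between ZnSO4 exposures was 0.44 for ZnO-positive and 0.59 for ZnO-negative members, and 0.32 over all probes. Between ZnO NP exposures it was 0.33 and 0.48, and 0.27 over all probes.

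The members with the largest difference among those valued in every zinc exposure at the LC25 show the same unevenness. P10AG2, ZnO-positive, had 0.79, 0.59, 1.16 and 0.36 in the ZnO NP exposures and -0.77, -0.47, 0.65, -0.015 and -0.58 in the ZnSO4 exposures. P5BE9 had 0.29, 0.41, 0.51 and 0.24 under ZnO NP and -0.81, -0.75, 0.37, -0.36 and -0.72 under ZnSO4. For both probes only the third ZnSO4 exposure was clearly positive, and it overlapped the ZnO NP values. P12DH4, ZnO-negative, had -0.38, -0.14, -0.88 and 0.69 under ZnO NP and 1.11, 0.71, -0.031, 1.36 and 1.40 under ZnSO4. P4AB5 had -1.56, 3.15, -2.33 and -0.37 under ZnO NP and 0.26, -1.34, 1.29, 0.48 and -0.86 under ZnSO4. For P4AB5 the exposures of either group lay on both sides of 0, and its mean was -0.28 ± 2.42 (SD, n = 4) and -0.032 ± 1.06 (SD, n = 5), so its opposite medians are small beside the spread.

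The ZnO-positive and ZnO-negative members came from different parts of the probe collection. Probe names begin with A (7 plates) or P (13 plates), and what the series stand for is not given in the sources used here. P probes made up 73.5% of the eligible probes but 59 of the 60 ZnO-positive members. A probes made up 26.5% of the eligible probes but 68 of the 90 ZnO-negative members. Among all 475 opposite probes, 266 of 278 ZnO-positive ones were on P plates and 133 of 197 ZnO-negative ones on A plates. Members were spread over many plates of a series: ZnO-positive members lay on 10 of the 13 P plates, ZnO-negative members on all 7 A plates and 10 P plates. P12 held the most ZnO-positive members, 14 of its 380 eligible probes, and A1 the most ZnO-negative, 19 of 344. P1 and P3 held none. As a share of eligible probes, ZnO-negative members were most frequent on A7, with 11 of 177, and the A plate with the fewest was A3, with 4 of 156.

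The plate series as a whole moved with the groups. Over all eligible probes, the median of the A probes minus that of the P probes was -0.083, -0.083, -0.21 and -0.29 in the ZnO NP exposures at the LC25. It was 0.28, 0.34, -0.16, 0.062 and 0.39 in the ZnSO4 exposures, so the third exposure again had the sign of ZnO NP. Under SiO2 NP at the LC25 it was -0.040, -0.15, -0.20 and -0.21. At 1/10 LC50 it lay between -0.17 and 0.14 in all exposures. When each series' median was subtracted per array, an alternative chosen after seeing the data, 299 probes were opposite and 99 of the 150 members still met the rule. The 150 then chosen held 29 of 55 ZnO-positive members on P plates and 31 of 95 ZnO-negative members on A plates. The part of the plate series in the members' opposition was otherwise not tested.

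At 1/10 LC50, ZnO NP and ZnSO4 did not show the opposition. The difference ZnO NP minus ZnSO4 had a median of 0.00010 over the ZnO-positive members, beside 0.80 for the same probes at the LC25, and was positive for 30 of 60. Over the ZnO-negative members its median was 0.053, beside -0.96 at the LC25, and it was positive for 49 of the 83 with values, against 47.5% of all probes. The rule did not use these groups, and limma called no member different between them, with 0 of 5495 probes (0%) past an adjusted p of 0.05. At an unadjusted p below 0.05 the share was 1.66% of all probes (91) and 1 of the 141 members that could be tested (60 ZnO-positive, 81 ZnO-negative). A missed threshold does not show that particle and salt acted alike at this level.

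At 1/10 LC50 most ZnO-negative members were negative under ZnO NP and most were negative under ZnSO4, but these were not always the same probes. P8AF2, for one, had a median of -1.02 under ZnO NP and 0.54 under ZnSO4. Their median was -0.095 under ZnO NP and -0.12 under ZnSO4. In each group 30 of 85 members were positive, against 51.7% and 56.9% of all probes. Under ZnSO4 the plate series differed: 18 of 63 members on A plates were positive, against 35.5% of all eligible A probes. On P plates 12 of 22 were positive, against 61.9% of P probes. Under ZnO NP it was 23 of 63 on A plates (51.7% of A probes) and 7 of 22 on P plates (49.0% of P probes). Read as Cy5 over Cy3, both medians turned positive, to 0.035 and 0.022. The ZnO-positive members had medians of 0.017 and 0.020, with 38 and 36 of 60 positive; under that reading these medians turned negative, to -0.092 and -0.081, with 18 and 20 of 60 positive. Against 0, limma called no member in either group, with 0% of probes called for ZnO NP and 0.0182% (1 probe, no member) for ZnSO4. At an unadjusted p below 0.05, there were 5 of 141 members under ZnO NP (2 ZnO-positive, with positive ratios, and 3 ZnO-negative, with negative ratios), against 4.79% of all probes. Under ZnSO4 there were 3 members, all ZnO-negative with negative ratios, against 2.13%. Neither count is read as a result about the members.

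Single exposures carried these lower-level values. Under ZnO NP the medians of the ZnO-positive members were -0.013, 0.010, -0.026 and 0.42 in exposures 1 to 4. Those of the ZnO-negative members were -0.021, 0.065, 0.13 and -0.52. Exposure 4, a single array with exposed RNA in Cy3, thus had the LC25 pattern of ZnO NP, with 49 of 57 and 74 of 81 valued members in those signs, whereas the other exposures had none of it. Without exposure 4 the medians were -0.030 and 0.048. Under ZnSO4 the ZnO-negative members had -0.12, 0.00087 and -0.36 in exposures 1 to 3, and 31 of the 80 valued in all of them were negative in each, against 9.95% of all probes. In exposure 3 their median was -0.74 on the array with exposed RNA in Cy3 and -0.016 on the swapped array. The negative value of exposure 3 thus came from 1 array of the pair. In exposure 1 the order was the reverse, with 0.031 on the array with exposed RNA in Cy3 and -0.25 on the swapped array. For these members, too, the part of the dye was not tested. Without exposure 2 or exposure 3 the group's median was -0.31 or -0.060.

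At the lower level, 3 of the 4 members first named above had these values, with P4AB5 given after them. P10AG2 had -0.019, -0.034, -0.090 and 0.72 under ZnO NP and -0.024, 0.096 and -0.16 under ZnSO4. P5BE9 had -0.16, -0.021, -0.10 and 0.58 under ZnO NP and 0.00022, 0.077 and 0.14 under ZnSO4. P12DH4 had -0.14, 0.13, -0.34 and -1.58 against -0.18, 0.029 and -0.93. In all 3 probes ZnO NP exposure 4 lay outside the range of the ZnSO4 exposures, on the side the probe had under ZnO NP at the LC25.

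The members furthest apart at the lower level were all ZnO-negative. A1D11 had 0.44, 0.58, 0.59 and -0.96 under ZnO NP and -0.22, -0.022 and -0.74 under ZnSO4, so 3 of 4 ZnO NP exposures lay above all of ZnSO4. A6M10 had 0.28, -0.29, 0.61 and -1.40 against -0.62, -0.27 and -0.98, and the groups overlapped. P8AF2 had -2.06, -0.022, 0.052 and -2.01 under ZnO NP and 0.54, 0.61 and -1.55 under ZnSO4. P4AB5 had -1.34, -0.21, 0.15 and -3.21 against 0.63, 0.56 and -1.64. In these probes, too, the groups overlapped. P8AF2 and P4AB5 shared their sign in every exposure of every group. Members are counted as probes, and how many genes they stand for is not known here. The fitted differences were 0.38 ± 0.47 (SE) for A1D11, 0.42 ± 0.50 for A6M10, -0.94 ± 0.77 for P8AF2 and -0.98 ± 1.06 for P4AB5, and limma gave each an adjusted p of 1.00 (0.99957 before rounding).

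Silica at the LC25 fell on the side of ZnO NP for the ZnO-positive members. Their median was 0.29 under SiO2 NP (quartiles over members 0.17 and 0.39), and 56 of 60 were positive, against 49.9% of all probes. On P plates, which held 59 of these members, 57.8% of all eligible probes were positive, with a median of 0.038. The median reached 0.2 for 42 of the 60 members, against 18.9% of all probes. For 53 the silica median lay nearer to that of ZnO NP than to that of ZnSO4, and for 16 it lay above both. The exposure medians were 0.24, 0.20, 0.37 and 0.43, averaging 0.31 ± 0.11 (SD, n = 4), so no silica exposure reached down to the negative ZnSO4 exposures. Of 55 members valued in all 4 silica exposures, 33 were positive in each, against 14.6% of all probes.

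The silica values differed between the 2 arrays of a swapped pair. In exposure 3 the ZnO-positive members had a median of 0.93 on the array with exposed RNA in Cy3 and -0.20 on the swapped array, and in exposure 1 of 0.44 and 0.037. The single arrays of exposures 2 and 4, with exposed RNA in Cy5, had 0.20 and 0.43. Fitted in limma with a dye term, the members' median was 0.298 with 56 of 60 positive. Without that term it was 0.297, again with 56 of 60 positive. The part of the dye was not tested. Read as Cy5 over Cy3, the silica median of the ZnO-positive members was -0.051 and 22 of 60 were positive. Under that reading only 14 of the 150 members met the rule on the zinc groups. Their placing on the side of ZnO NP is therefore given only for the sign as deposited. With plate-series or plate medians subtracted the silica median of the ZnO-positive members was 0.26 and 0.21.

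For the ZnO-negative members silica did not fall clearly on either side. Their median under SiO2 NP at the LC25 was 0.088 (quartiles -0.088 and 0.27), with 53 positive and 37 negative, and the exposures gave -0.096, 0.13, 0.16 and 0.18. The silica median was nearer to that of ZnSO4 for 54 members and to that of ZnO NP for 36. It reached 0.2 for 30 and -0.2 for 14. Members on A plates had a silica median of 0.080, while all eligible A probes had -0.12 and 27.3% of them were positive. The 22 members on P plates had 0.12, beside 0.038 for all P probes. In either series the members thus lay above their series' level, the opposite side from where they lay under ZnO NP.

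Tested probe by probe against 0, SiO2 NP at the LC25 gave no call in limma, neither among members nor among all 5495 probes (0%), and the lowest adjusted p was 0.356. At an unadjusted p below 0.05, 23 of 60 ZnO-positive and 6 of 81 ZnO-negative members were positive, against 5.35% of all probes. No member was negative in this fit, against 4.29%. Fitted on the silica group alone, 19 ZnO-positive members were positive and 1 negative, and 0 ZnO-negative members were positive and 3 negative. Over all probes, 499 of 6778 were below that p in this fit, counting either sign. Leaving out 1 silica exposure gave 10 to 21 ZnO-positive members, with 10 without exposure 3, 12 without exposure 4 and 15 without exposure 1. Over all probes it gave 404 (without exposure 4, of 5493) to 469 (without exposure 2, of 5487), counting either sign. The 6 ZnO-negative members became 19 without exposure 1 and 0 without exposure 2 or exposure 4. Negative members then numbered 2 ZnO-negative without exposure 1, 1 ZnO-negative without exposure 3 and 1 ZnO-positive without exposure 4. Read as Cy5 over Cy3, 0 ZnO-positive members remained at that threshold, beside 350 of 5495 probes in either sign. In the other alternatives, 12 to 35 ZnO-positive members were positive. The 12 came with the exposure number as replicate block, beside 489 probes in either sign. The 35 came with arrays fitted singly and exposures as random blocks (856 probes) and with quality weights (816 probes). P12AG5, chosen after its values were seen, had the lowest adjusted p among members, 0.378 in limma, at 0.61 ± 0.17 (SE).

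P10AG2 and P5BE9 were positive in every silica exposure. P10AG2 had 0.57, 0.28, 0.33 and 0.70, a fitted 0.48 ± 0.19 (SE), and P5BE9 had 0.51, 0.21, 0.49 and 0.45, a fitted 0.43 ± 0.16. For both, limma's adjusted p was 0.428. Among members valued in at least 3 silica exposures, the largest positive silica medians belonged to ZnO-negative members. A1L20 had 0.030, 1.31, 0.68 and 0.85, a fitted 0.74 ± 0.42 with an adjusted p of 0.528 in limma, and A6E20 had -0.20, 1.37, 0.54 and 0.91, a fitted 0.76 ± 0.29 (adjusted p = 0.428). On these probes silica had the sign of ZnSO4 in most exposures. The largest negative medians were those of P7BD9, with -0.64, -0.70, -1.44 and 0.29, and A4A14, with -0.74, -0.42, -0.56 and 0.098. Their fitted values were -0.74 ± 0.41 (adjusted p = 0.522 in limma) and -0.38 ± 0.25 (adjusted p = 0.564). P7BD9, a ZnO-positive member, and A4A14, a ZnO-negative one, were each negative in 3 of 4 silica exposures; read as Cy5 over Cy3, the median of A4A14 was 0.19.

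At 1/10 LC50 silica left both sets near 0. The ZnO-positive members had a median of -0.023, with 27 of 60 positive, and the ZnO-negative members of 0.0087, with 46 of 84 positive, against 50.9% of all probes. Exposure medians lay between -0.077 and 0.028 for the former and between -0.0013 and 0.033 for the latter. Limma called no member and none of the 5495 probes (0%), with no member and 0.819% of probes (45) at an unadjusted p below 0.05.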

How the data were processed

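The authors deposited 1 log ratio per probe and array, read here as log2 values. The base, the numerator, the spot filter and the normalization are not given in the sources used here. Array medians lay between -0.075 and 0.11. Using signs as deposited is an assumption, and Cy5 over Cy3 was an alternative. Over all probes, the 13 swapped pairs of one exposure had a median r of 0.132 (-0.298 to 0.715). Between exposures, 5 of 310 array pairs sharing a dye orientation had r below -0.3 (lowest -0.520, median 0.080), as had 16 of 307 of opposite orientation (lowest -0.563, median -0.020).

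Arrays of an exposure were averaged. The 6 groups were fitted together in limma 3.58.1 (R 4.3.3) with a dye term, on 5495 probes valued in at least 2 exposures of every group; 141 members were among them. Two-sided p-values were adjusted after Benjamini and Hochberg over all probes tested, and the procedure was tested on simulated data. The LC25 zinc values chose the members and were not tested. P-values measure the spread between exposures, whose number, 3 to 5 per group, limits precision. The members, lists and tests were chosen with earlier results of these data known. Probes named are, per comparison, the 2 most extreme members in each direction: by LC25 difference (valued in all exposures), by difference at 1/10 LC50 and by silica median at the LC25 (both valued in at least 3 exposures). Planned gene lists were not run. Exposure numbers were not used to pair groups in the main fit, since no label ties exposures of different groups. Same-numbered exposures had a median r of -0.026 (-0.35 to 0.49), other pairs -0.0031. These values do not show whether exposures were run together.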

Additional observations from a re-analysis of the deposited data

Results flagged for a closer look

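In 3 of 50 groups of exposures examined, 1 exposure lay far from the others, and chance alone gives about 1 in 20. All 3 were exposure 4 of ZnO NP at 1/10 LC50. The median of the ZnO-positive members was 0.42 there and between -0.026 and 0.010 in the others. P10AG2 had 0.72 there and between -0.090 and -0.019 in the others. A1D11 had -0.96 there and 0.44 to 0.59 in the others.

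Opposite signs in every exposure of 2 groups were found for 3 of 88 ordered pairs examined among the named probes; these differences were not tested. P10AG2 was positive in every SiO2 NP exposure at the LC25 and negative in every one at 1/10 LC50, with medians 0.57 apart. A6E20 was positive in every SiO2 NP exposure at 1/10 LC50 and negative in every ZnO NP exposure (0.44 apart) and every ZnSO4 exposure (0.50 apart) at that level.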

How the results depend on the processing

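The membership depended on the processing, and several of the levels changed sign when read as Cy5 over Cy3. The 475 opposite probes, of 5726 eligible, became 792 at a threshold of 0.15 and 120 at 0.3. They became 311 with arrays scaled to one spread and 157 read as Cy5 over Cy3. With plate medians subtracted they were 271, and with plate-series medians subtracted 299. With values in every exposure required they were 229, but only 2964 probes were then eligible. Of the 150 members, 97 met the rule at 0.3 and 14 when read as Cy5 over Cy3. With the mean in place of the median 379 probes were opposite, and 97 of the 150 members met the rule. Leaving out 1 zinc exposure gave 190 (without ZnO NP exposure 3, of 3390 eligible) to 710 probes (without ZnSO4 exposure 3, of 5387). Without ZnO NP exposure 2 it gave 261, of 3359 eligible. The causes were not tested.

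Calls in limma were few throughout. For ZnO NP at 1/10 LC50 the 0 became 19 with arrays fitted singly and exposures as random blocks, 30 with quality weights and 0 to 3 with 1 exposure left out (3 without exposure 4). For ZnSO4 the single call became 7 with only the groups compared, 12 with the random block and 6 with quality weights. It became 0 with scaled arrays, no filter, a robust prior, Cy5 over Cy3, few-value arrays left out, plate or plate-series medians subtracted (the latter added after seeing the data, as was the former for tests), and 0 to 0 with 1 exposure left out. With the exposure number as a replicate block no probe passed in any of the 5 tests (0 in place of 1 for ZnSO4). SiO2 NP at the LC25 gave 13 with the random block. The difference between zinc forms at 1/10 LC50 gave 1 with quality weights and 0 to 1 with 1 exposure left out. Among members, only A7K8, chosen after its values were seen, was called in any alternative run: -0.74 ± 0.17 (SE, limma adjusted p = 0.0472) for ZnO NP at 1/10 LC50 with the random block, against 0.456 in the fit reported.

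Read as Cy5 over Cy3, the ZnO-positive median was -0.051 for SiO2 NP at the LC25 and -0.081 for ZnSO4 at 1/10 LC50, the ZnO-negative median -0.082 for SiO2 NP at 1/10 LC50, and A4A14 had 0.19 for SiO2 NP at the LC25 in place of -0.49. With 1 exposure left out, the ZnO-negative median ranged from -0.31 to -0.060 for ZnSO4 and from -0.015 to 0.037 for SiO2 NP at 1/10 LC50. Spot brightness was not used here.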
